A study of Saccharomyces cerevisiae with 12 samples.

Results

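The comparison described here sets a Saccharomyces cerevisiae strain labelled as co-expressing TAL and ADH against a control strain, both sampled after 6 h with 70 mM furfural. Its members are the scanner files whose labels give either strain at that dose, 2 arrays for TAL-ADH and 2 for the control, so 4 arrays of 12 in the series. The series holds 3 strains, a control strain, a TAL strain and the TAL-ADH strain, each at 0 and 70 mM furfural with 2 runs a group, 1 single-colour array a sample and Cy3-labelled copies of total RNA. The source names give all strains as derived from MT8-1X, a xylose-fermenting strain, with strain codes that are not explained. The labels name neither the introduced genes nor their promoters, so TAL is only assumed here to be TAL1 and ADH to be ADH1. Whether the runs came from separate cultures is not stated, and each p-value therefore measures only the spread between these arrays, which may be technical.

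Furfural is a sugar-derived aldehyde in acid-treated plant biomass that slows yeast growth and fermentation. Yeast cells reduce it to furfuryl alcohol with alcohol dehydrogenases and aldehyde reductases that draw on NADH or NADPH. The pentose phosphate pathway supplies NADPH in its oxidative branch. Its non-oxidative branch, with transaldolase and transketolase, also carries carbon from xylose into glycolysis. Yeast under aldehyde stress is known to raise reductase, export and chaperone genes and to lower genes for making ribosomes.

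Every gene was tested on its log2 level, which is the log2 of the processed spot signal minus the 75th percentile of all gene signals of that array. A difference is the TAL-ADH mean minus the control mean on this scale, with the standard error (SE) of the fit and 2 arrays against 2. A gene was called at an adjusted p under 0.05. From here on, TAL-ADH run 1 and run 2 and control run 1 and run 2 mean the 70 mM arrays unless 0 mM is written.

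The arrays labelled TAL-ADH 70 mM stood apart from the other arrays labelled 70 mM. Across the 6083 genes, their mean profile correlated with that of the control strain without furfural at r = 0.992 and with TAL-ADH without furfural at r = 0.987. The same profile correlated with the control strain at 70 mM at r = 0.861, with TAL at 70 mM at r = 0.865 and with TAL at 0 mM at r = 0.866. Runs 1 and 2 of TAL-ADH at 70 mM correlated at r = 0.982 and those of the control at r = 0.956. Genes are not independent replicates, and these values are a description. TAL1 on these arrays was near its level in the same strain without furfural, while URA3 was far below its level there, both as given below. Whether the dose and strain labels are right was not tested. Both TAL-ADH runs behaved this way, so no result below can be given without such an array, and all directions refer to the library labels. The slides and scans matched the labels in blocks of 2 groups. The arrays labelled TAL-ADH 70 mM lay on the slide of the control strain at 0 mM, and the control arrays at 70 mM lay on the slide of TAL at 70 mM. In the strain comparison at 70 mM, strain and slide therefore cannot be told apart. On the 4 arrays 94.9% to 97.2% of gene spots were well above background, 5920 to 6084 genes were detected, the 75th percentile of signal was 2799 to 4625 intensity units and 0 gene spots were saturated.

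TAL1, which encodes transaldolase of the non-oxidative pentose phosphate branch, stood at log2 levels of 3.58 and 4.46 in TAL-ADH runs 1 and 2 and at 0.54 and 0.89 in control runs 1 and 2. The TAL-ADH arrays were both above the control arrays. The difference was 3.31 ± 0.34 (SE; adjusted p = 0.000172), a 9.92-fold higher level, and TAL1 was called in every alternative fit. In TAL-ADH without furfural TAL1 stood at a mean of 3.81 ± 0.22 (SD, n = 2), close to the 4.02 ± 0.62 of the same strain with it. ADH1, whose enzyme reduces acetaldehyde to ethanol in fermentation, read 5.98 and 6.20 in TAL-ADH and at 5.65 and 5.12 in the control. The groups did not overlap, but the difference of 0.71 ± 0.42 missed the test (adjusted p = 0.21). ADH1 passed under quantile normalization (adjusted p = 0.00554), and its probe can share signal with ADH2, ADH3 and ADH5.

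XKS1, xylulokinase of xylose use, stood at 2.67 and 2.71 in TAL-ADH and at 3.26 and 3.55 in the control. It was lower in TAL-ADH by a narrow margin (-0.71 ± 0.23, adjusted p = 0.0408). The call was lost in 7 of 13 alternative fits, among them those without TAL-ADH run 1 (adjusted p = 0.15), without TAL-ADH run 2 (0.141) and without control run 2 (0.178). URA3, orotidine phosphate decarboxylase and a common plasmid marker, stood at 1.18 and 0.99 in TAL-ADH and at 4.72 and 5.23 in the control. No array of TAL-ADH came near the control arrays, and the difference was -3.89 ± 0.36 (adjusted p = 0.000111). Without furfural the same TAL-ADH strain had a URA3 mean of 4.21 ± 0.42 (SD, n = 2). TRP1, of tryptophan synthesis, spread over 1.98 and 2.81 in TAL-ADH and 3.06 and 4.36 in the control (-1.31 ± 0.73, adjusted p = 0.186). LEU2, of leucine synthesis, stood at 1.64 and 1.13 against 0.95 and -0.06 (0.94 ± 0.52, adjusted p = 0.186). ADE2, of adenine synthesis, stood at 0.12 and -0.27 against a control mean of 1.01 ± 0.13 (SD, n = 2). Its difference of -1.08 ± 0.22 was called (adjusted p = 0.00492) and lost without TAL-ADH run 2 (adjusted p = 0.0536). HIS3, of histidine synthesis, was detected on 0 of 12 arrays.

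**Figure D1:**
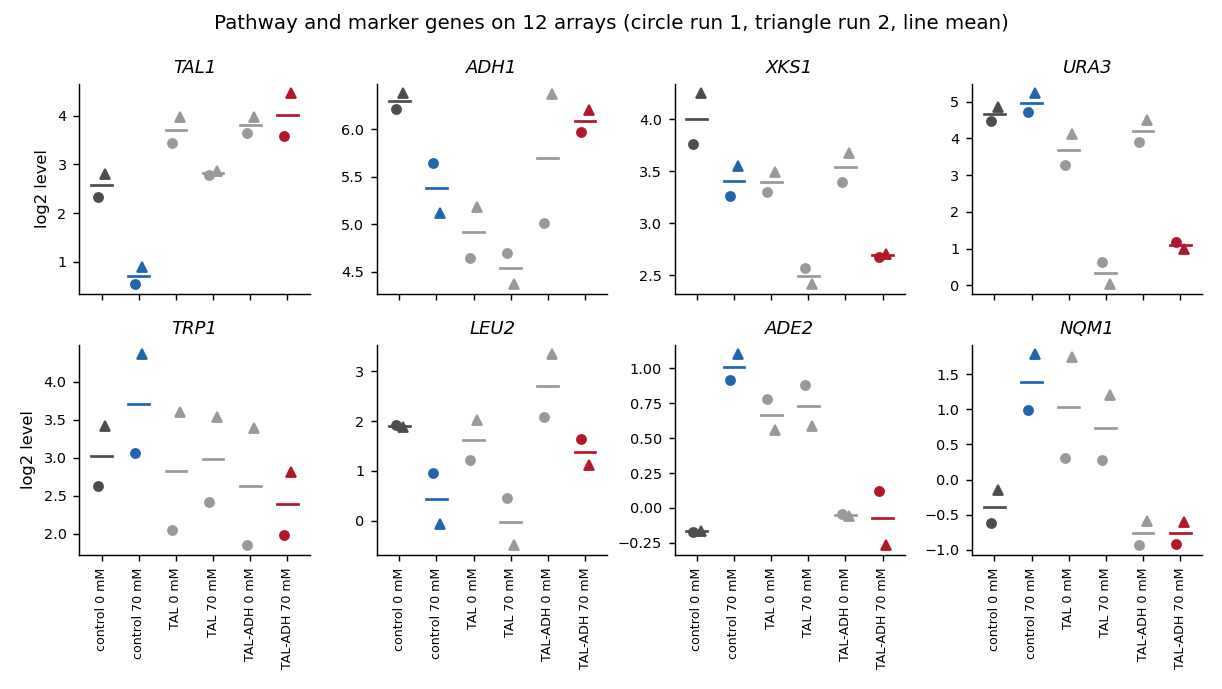
Log2 levels of TAL1, ADH1, XKS1, URA3, TRP1, LEU2, ADE2 and NQM1 on all 12 arrays, each panel with its own axis. Circles are run 1, triangles run 2 and lines the group mean; control 70 mM is blue, TAL-ADH 70 mM red, control 0 mM dark grey and the other groups light grey. TAL1 was lowest on the control 70 mM arrays (0.54 and 0.89), and URA3 stood at 1.18 and 0.99 on the TAL-ADH 70 mM arrays against 4.72 and 5.23 in the control at that dose.

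By limma, 2226 of 6083 genes were called between TAL-ADH and the control at 70 mM, which is 36.6% of those tested. Of these, 1370 were higher in TAL-ADH (22.5% of tested) and 856 lower (14.1%), and 1712 differed by at least 1 log2. At an unadjusted p under 0.05 the count was 2854. The larger differences ran downwards, with 300 genes lower and 252 higher by at least 2 log2, and 46 lower and 4 higher by at least 4 log2. The median difference of all genes was 0.20 and depended on scaling, at 0.05 after quantile normalization and -0.06 after scaling to the array median. With the array median, 928 genes were called higher and 1112 lower, so 61.5% of calls were higher under the main scaling and 45.5% under that scaling. Leaving out an array gave 1310 called genes without TAL-ADH run 1, 1136 without TAL-ADH run 2 and 1297 without control run 2. In none of the 13 alternative fits did a gene called there and in the main setting turn its direction.

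**Figure D2:**
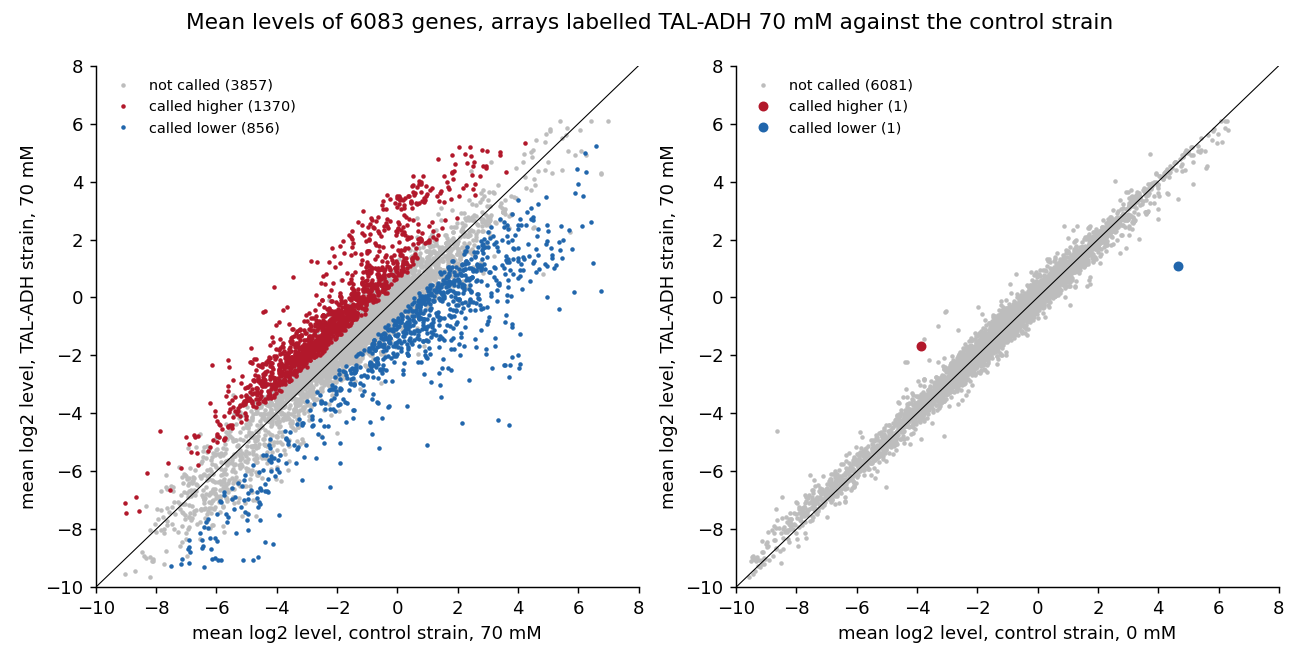
Mean log2 level of each of 6083 genes on the TAL-ADH 70 mM arrays against the control strain at 70 mM (left) and at 0 mM (right), with red for genes called higher in TAL-ADH, blue for those called lower and the line of equal levels. The left panel holds 1370 higher and 856 lower genes, while the right panel holds 1 of each, IMA5 and URA3, and lies along the line.

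The largest differences among genes detected in both strains were lower levels in TAL-ADH. CIS1, a little-studied gene, stood at -4.38 and -4.42 in TAL-ADH and at 3.45 and 3.96 in the control. This 275-fold lower level (-8.11 ± 0.33, adjusted p = 1.46e-06) was the largest of any gene tested. FRM2, a nitroreductase, stood at -4.15 and -4.32 against 3.23 and 3.44, 190-fold lower (-7.57 ± 0.27, adjusted p = 8.65e-07). The open reading frame YCL027C-A stood at 0.37 and 0.07 against 6.62 and 6.92, which is -6.55 ± 0.22. All of these were tight between runs. YKL070W and OSI1 are neighbours in the RefSeq gene table and were lower by -6.49 ± 0.45 and -6.35 ± 0.45. SPS100, a spore wall gene, stood at -3.06 and -1.80 against 2.95 and 5.13, and its SE was wide (-6.46 ± 1.16, adjusted p = 0.00299). GRE1 (-6.07 ± 1.13) and SIP18 (-6.08 ± 0.88), both encoding hydrophilins made under osmotic stress and drying, also spread between runs. SPG1, a stationary-phase gene, was lower by -6.43 ± 0.54 and the oxidoreductase gene YLR460C by -6.01 ± 0.49. All 10 genes were called in every alternative fit.

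The 10 largest differences upwards were genes of the ribosome, maltose use and sorbitol use. RPL21A, a protein of the large ribosomal subunit, stood at 0.35 and 0.37 in TAL-ADH and at -3.75 and -4.40 in the control, 21.7-fold higher (4.44 ± 0.43, adjusted p = 0.000119). RPS9B stood at 2.94 and 3.00 against -0.76 and -1.48 (4.09 ± 0.45). The other ribosomal protein genes of the 10 were RPL27B (3.92 ± 0.43), RPS26B (3.90 ± 0.53), RPS18B (3.88 ± 0.28) and RPL8A (3.88 ± 0.48). MAL32, a maltase, stood at 0.16 and 1.22 against -3.66 and -3.23 (4.14 ± 0.42), and MAL12, a near-identical maltase, differed by 4.13 ± 0.41. These probes can share signal, so MAL12 and MAL32 are not separate observations. SOR1, sorbitol dehydrogenase, stood at -1.86 and 0.96 against -4.38 and -4.38. The control runs lay together and the TAL-ADH runs lay far apart (3.93 ± 1.02, adjusted p = 0.0159). The near-identical SOR2 differed by 3.95 ± 1.02. Both calls were lost without TAL-ADH run 2 (adjusted p 0.116 and 0.112) and without control run 2 (0.0692 and 0.0682), and that of SOR1 also without control run 1 (0.0508).

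**Figure D3:**
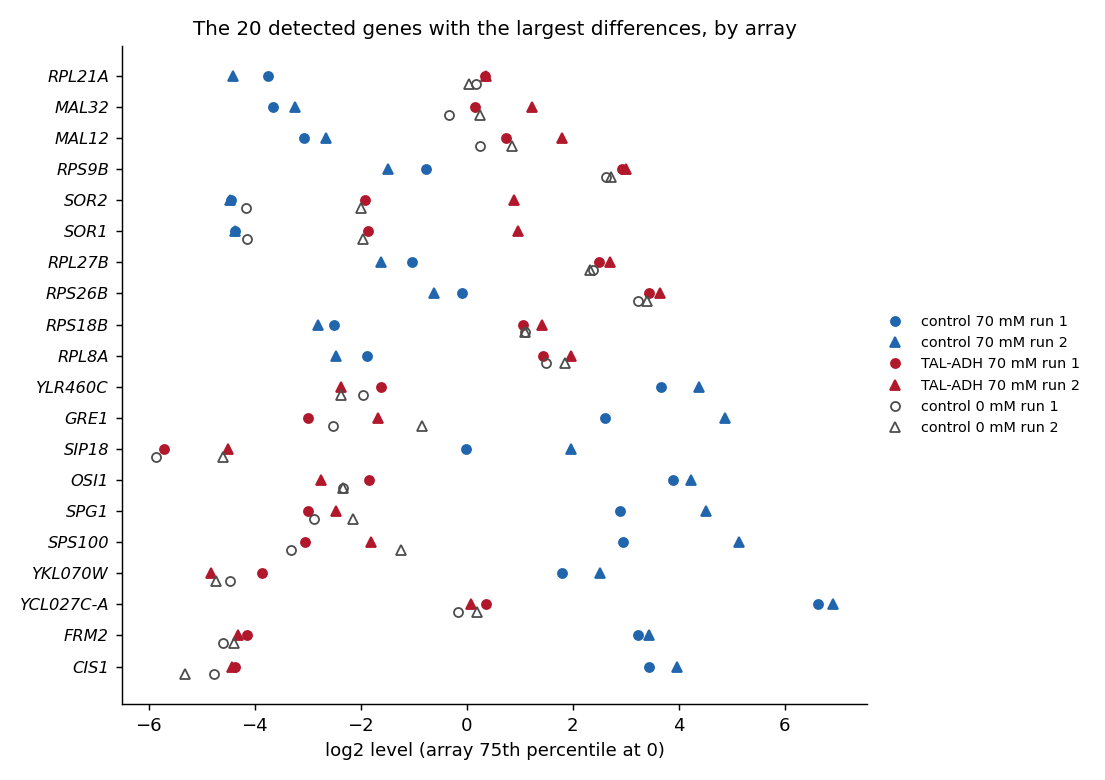
Log2 level of the 10 genes with the largest difference in each direction on the 70 mM arrays of the control (blue) and TAL-ADH (red) and, as open symbols, on the control arrays at 0 mM; circles are run 1 and triangles run 2. The genes were chosen for their difference on these same arrays, so the gap between red and blue symbols is no separate result. CIS1 has the widest gap, from -4.38 and -4.42 to 3.45 and 3.96.

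Some called genes were not well above background on the arrays of a strain and have only a bound. YOL150C, an open reading frame, was at least 11.4-fold lower in TAL-ADH and ARR3, an arsenite exporter, at least 9.44-fold lower. YJL220W, YMR324C and YLR217W were lower by at least 7.99-fold, 7.12-fold and 5.64-fold. In the other direction HXT13, of the hexose transporter family, was at least 5.11-fold higher in TAL-ADH, with measured levels of -5.03 and -4.18 against -7.15 and -8.61. The bound uses, for the group without a detected signal, the mean of the higher of the gene's own signal and the lowest signal well above background on each array. YLR217W and HXT13 lost their calls after normexp background correction.

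Most measured aldehyde reductases and related oxidoreductases were lower in TAL-ADH, while most members of the dehydrogenase lists below were not called. Of 20 measured aldehyde reductases and related oxidoreductases, 15 were lower and 3 higher, with a median of -2.73 beside 0.20 over all genes. Besides FRM2, OSI1 and YLR460C, the open reading frame YLL056C stood at -2.15 and -2.51 against 3.32 and 3.79 (-5.89 ± 0.39). The 3 higher members included YPL088W, of the aryl-alcohol dehydrogenase kind (1.74 ± 0.36, adjusted p = 0.00613), whose call was lost without TAL-ADH run 2 (adjusted p = 0.0563). The count of higher members was 1 without TAL-ADH run 1 and 0 without TAL-ADH run 2. Among 13 pyruvate decarboxylase and alcohol dehydrogenase genes, 4 were lower and 2 higher, 46.2% called beside 36.6% of all genes. SFA1, the glutathione-dependent formaldehyde dehydrogenase, which also reduces furan aldehydes, stood at 0.36 and -0.32 against 4.64 and 5.27, 30.6-fold lower (-4.93 ± 0.31, adjusted p = 2.31e-05). ADH6, an NADPH-dependent alcohol dehydrogenase that reduces furfural and other aldehydes, went the other way, with 0.43 and 1.48 against -1.20 and -0.68 (1.89 ± 0.39, adjusted p = 0.00537). BDH2, a butanediol dehydrogenase homologue, was lower by -2.46 ± 0.22. ADH2, which oxidises ethanol, stood at -0.60 and 0.69 against 3.22 and 4.35 (-3.74 ± 0.86, adjusted p = 0.0094). That call was lost without TAL-ADH run 1 (adjusted p = 0.0672) and control run 2 (0.0673), and 2 members were called lower without control run 2. Higher members of this list numbered 1 without TAL-ADH run 1, TAL-ADH run 2 or control run 2. Of 8 aldehyde dehydrogenase and acetyl-CoA synthetase genes 3 were lower and 0 higher, 37.5% called beside 36.6% of all genes. ALD4, the mitochondrial aldehyde dehydrogenase, stood at 1.41 and 1.96 against 5.47 and 6.13 (-4.12 ± 0.44, adjusted p = 0.000234). ALD4 alone kept its call without TAL-ADH run 1 and without control run 2.

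Pentose phosphate genes were called in both directions. Of the 7 genes of the non-oxidative branch, 3 were higher and 1 lower, with a median of 1.16. TKL1, the main transketolase, stood at 3.27 and 3.73 in TAL-ADH against 1.36 and 1.26 in the control (2.19 ± 0.35, adjusted p = 0.00181), above the control on both arrays like TAL1. NQM1, a transaldolase paralogue, was the lower member, with -0.92 and -0.61 against 1.00 and 1.78 (-2.15 ± 0.50, adjusted p = 0.00989). Its call was lost without TAL-ADH run 1 (adjusted p = 0.0597) and without control run 2 (0.0708). Of 12 oxidative branch and NADPH supply genes 0 were higher and 3 lower, against a background of 22.5% and 14.1%. ZWF1, glucose-6-phosphate dehydrogenase, the first enzyme of the oxidative branch, stood at 0.54 and 0.77 against 1.81 and 2.22 (-1.37 ± 0.29, adjusted p = 0.00631). IDP3, the peroxisomal NADP isocitrate dehydrogenase, was lower by -1.85 ± 0.21. The count of higher members in this list was 2 without TAL-ADH run 1. Of 9 xylose use and aldose reductase genes 2 were higher, SOR1 and SOR2, and 3 lower, 55.6% called beside 36.6% of all genes. SOR1 and SOR2 are near-identical and not separate observations, and both calls were lost without TAL-ADH run 2 or control run 2. Among the lower ones YPR1, an NADPH-dependent aldo-keto reductase, stood at -0.09 and 0.40 against 1.85 and 2.48 (-2.01 ± 0.29, adjusted p = 0.000969) and was called in every alternative fit. The lower count was 1 without TAL-ADH run 1, TAL-ADH run 2 or control run 2.

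Genes for defence against oxidants and for drug export were called lower far more often than higher. Of 29 peroxide, thioredoxin and glutathione genes 14 were lower and 1 higher, with a median of -0.80. SRX1, the sulfiredoxin that restores oxidised peroxiredoxin, stood at -1.92 and -2.96 against 2.73 and 3.55 (-5.58 ± 0.47). GPX2, a glutathione peroxidase, was lower by -4.44 ± 0.54, CTA1, the peroxisomal catalase, by -4.21 ± 0.48 and TRX2, a cytosolic thioredoxin, by -3.81 ± 0.32. DOT5, a nuclear thiol peroxidase, was the higher member (1.69 ± 0.23, adjusted p = 0.000746). TSA1, the abundant cytosolic peroxiredoxin, differed by 0.39 ± 0.29 and did not pass. Of 20 multidrug and weak acid export genes 14 were lower and 1 higher, with a median of -1.82. FLR1, a drug transporter of the plasma membrane, stood at -0.23 and -0.59 against 5.35 and 5.40, 55.0-fold lower (-5.78 ± 0.21, adjusted p = 8.65e-07). SNQ2, an ABC exporter, stood at 0.13 and 0.27 against 5.63 and 6.09 (-5.66 ± 0.23). QDR2, another drug transporter, was higher (1.73 ± 0.25). With TAL-ADH run 2 left out 8 were lower, and 9 without control run 2. Of 20 stress transcription factor genes 12 were lower and 3 higher, with the drug response regulator YRR1 (-3.55 ± 0.32), CIN5 of the Yap family (-3.01 ± 0.37) and the proteasome gene regulator RPN4 (-2.19 ± 0.25) among the lower ones. YAP3, another Yap factor, was higher by 1.28 ± 0.21 and not called after normexp background correction. The count of higher factors was 1 without TAL-ADH run 1, TAL-ADH run 2 or control run 1.

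Heat shock genes were mostly lower in TAL-ADH, and 4 chaperone genes of the ribosome were higher. Of 33 heat shock proteins and cytosolic chaperones 27 were lower and 1 higher, with a median of -2.61. HSP30, a plasma membrane heat shock protein, stood at 1.49 and 0.87 against 6.33 and 6.64, 39.6-fold lower (-5.31 ± 0.29, adjusted p = 1.2e-05). HSP26, a small heat shock protein, was lower by -3.67 ± 0.59, FES1, an exchange factor of cytosolic HSP70, by -3.77 ± 0.74 and SSE1, an HSP110 family chaperone, by -2.61 ± 0.32. MGE1, an exchange factor of mitochondrial HSP70, was the higher member (1.69 ± 0.32). Of 7 ribosome-bound chaperone genes 4 were higher and 0 lower, with a median of 1.86. SSB1, an HSP70 that binds nascent chains, stood at 2.70 and 2.72 against 0.41 and 0.34 (2.34 ± 0.33, adjusted p = 0.000936), and EGD1, of the nascent polypeptide-associated complex, was higher by 2.29 ± 0.40. Of 16 hydrophilin and general stress surface genes 11 were lower and 1 higher. SPG4, a stationary-phase gene, stood at -1.99 and -1.93 against 2.66 and 3.19 (-4.89 ± 0.46). The higher member was PIR3, a cell wall protein, with 4.28 and 4.98 against 1.49 and 3.12 (2.33 ± 0.61, adjusted p = 0.0161). Its call was lost without TAL-ADH run 2 (adjusted p = 0.103) and without control run 1 (0.0864). Only 7 were called lower without TAL-ADH run 1, TAL-ADH run 2 or control run 2. Of 20 trehalose and glycogen genes 5 were lower and 2 higher, 35% called beside 36.6% of all genes. Their median of -0.24 turned sign under some alternatives. NTH2, a neutral trehalase, was lower by -3.90 ± 0.43 and PIG2, a glycogen synthase regulator, by -3.24 ± 0.50. The lower count was 3 without TAL-ADH run 1 or control run 2, and 0 were higher without TAL-ADH run 2, 1 without either control run.

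**Figure D4:**
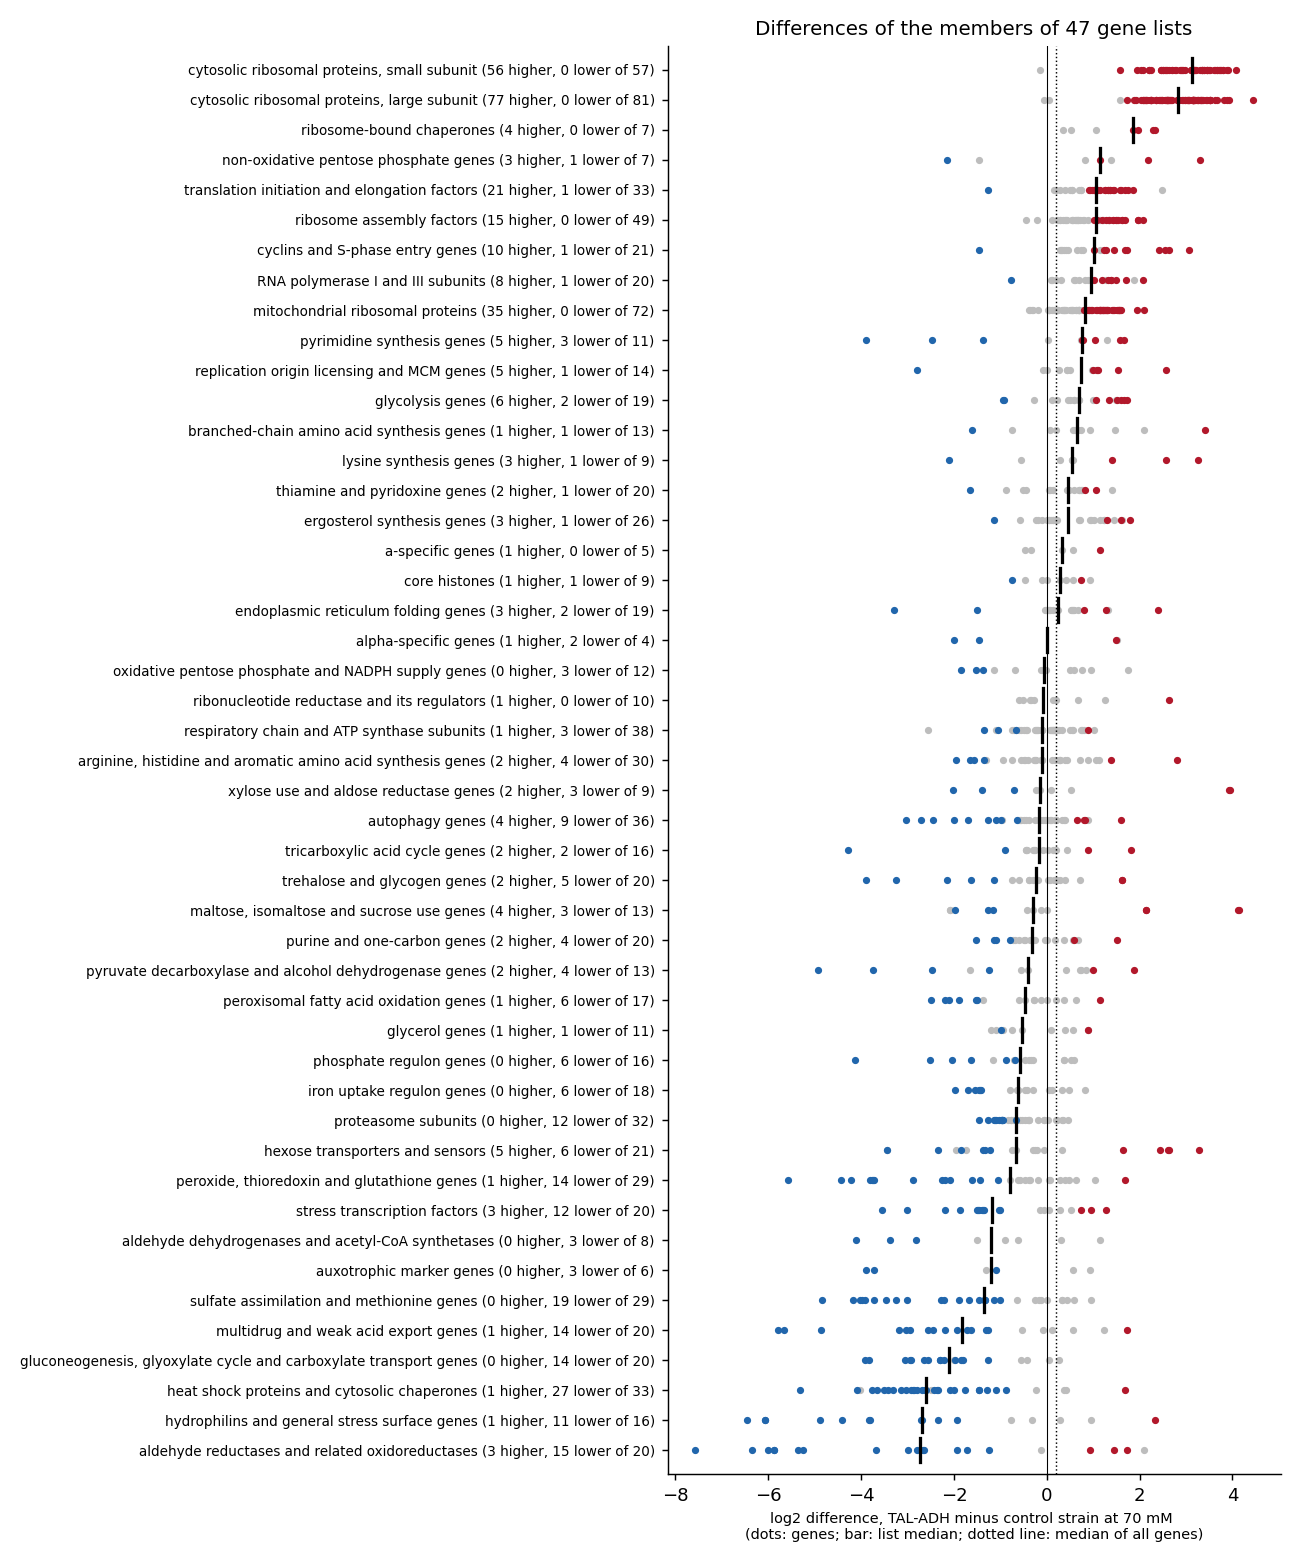
Differences of single genes (dots) in 47 gene lists, TAL-ADH minus control at 70 mM in log2 units, with red for called higher, blue for called lower, grey for not called, a bar at the list median and a dotted line at 0.20, the median of all genes. Cytosolic ribosomal protein lists lie at the top with medians of 3.13 and 2.82, and aldehyde reductases at the bottom with -2.73.

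The lists of cytosolic ribosomal protein genes had the highest shares of called genes among the 47 lists. Of 57 genes for the small cytosolic subunit 56 were higher and 0 lower, with a median of 3.13, and of 81 for the large subunit 77 were higher and 0 lower, with a median of 2.82. RPS4A, a small subunit protein, stood at 3.29 and 3.34 in TAL-ADH against -0.53 and -0.44 in the control (3.80 ± 0.21, adjusted p = 1.2e-05). RPS18B stood at 1.06 and 1.41 against -2.50 and -2.80, and RPL7B at -2.21 and -2.45 against -5.66 and -6.63 (3.82 ± 0.71). RPL7B was not detected on all 12 arrays, and its difference ranged from 2.48 to 4.30 over the alternative fits that held it. The small subunit gene that was not called, named after its value was seen, was RPS27A (-0.15), whose paralogue RPS27B was higher by 3.13 ± 0.24. Paired ribosomal protein genes are often near-identical, so a probe may read both copies. Of 72 mitochondrial ribosomal protein genes 35 were higher and 0 lower, with a median of 0.82. MRPL32 stood at -1.61 and -1.06 against -3.34 and -3.51 (2.10 ± 0.33), and MRP21 was higher by 1.94 ± 0.26. That count was 11 without TAL-ADH run 2, 20 without control run 2 and 20 after median scaling.

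Other genes of ribosome production and translation were higher where called, with 2 exceptions. Of 33 translation factor genes 21 were higher and 1 lower, with a median of 1.07. CDC33, the cap-binding protein, stood at 0.97 and 1.07 against -0.62 and -1.05 (1.86 ± 0.22, adjusted p = 0.000346), and TIF11, initiation factor 1A, was higher by 1.75 ± 0.23. The lower member was DED1, an RNA helicase of initiation (-1.27 ± 0.41, adjusted p = 0.0387), which was called without TAL-ADH run 1 and in no other fit that left out a 70 mM array. Of 49 ribosome assembly genes 15 were higher and 0 lower, 30.6% called beside 36.6% of all genes, with a median of 1.06. NOP12, a pre-ribosomal RNA binding protein, stood at 0.14 and -0.04 against -1.26 and -2.56 (1.96 ± 0.41, adjusted p = 0.00617). The count was 4 without TAL-ADH run 1, 4 without TAL-ADH run 2, 2 without control run 2 and 9 after median scaling. Of 20 RNA polymerase I and III subunit genes 8 were higher and 1 lower, 45% called beside 36.6% of all genes. RPC53 of polymerase III differed by 1.49 ± 0.30. The higher count was 3 without TAL-ADH run 1, 5 without TAL-ADH run 2 and 3 without control run 2, and the lower call was lost without TAL-ADH run 2.

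Of 32 proteasome subunit genes, 12 were lower and 0 higher, 37.5% called beside 36.6% of all genes, with a median of -0.65 and no member lower than -1.46. RPN10, a ubiquitin receptor of the proteasome, stood at 1.96 and 2.04 against 3.24 and 3.67 (-1.46 ± 0.29, adjusted p = 0.00489). The count was 3 without TAL-ADH run 1, 2 without TAL-ADH run 2, 2 without control run 2 and 6 after quantile normalization. Of 36 autophagy genes 9 were lower and 4 higher, 36.1% called beside 36.6% of all genes, with a median of -0.16. ATG40, an endoplasmic reticulum receptor of autophagy, stood at -3.07 and -2.68 against -0.30 and -0.03 (-2.71 ± 0.22, adjusted p = 6.73e-05). ATG1, the kinase that starts autophagy, was lower by -2.44 ± 0.47 and ATG41 by -3.02 ± 0.61. The lower count was 5 without TAL-ADH run 2, and the higher count was 1 without either TAL-ADH run and 2 without control run 2.

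Of 20 gluconeogenesis, glyoxylate cycle and carboxylate transport genes 14 were lower and 0 higher, with a median of -2.11. PCK1, phosphoenolpyruvate carboxykinase of gluconeogenesis, stood at -0.17 and 0.78 against 3.64 and 4.65 (-3.84 ± 0.54, adjusted p = 0.000917). ADY2, an acetate transporter, was lower by -3.90 ± 0.70, MLS1, malate synthase, by -3.06 ± 0.38 and JEN1, the lactate transporter, by -2.95 ± 0.44. Of 19 glycolysis genes 6 were higher and 2 lower, 42.1% called beside 36.6% of all genes, with a median of 0.70. TDH2, a glyceraldehyde-3-phosphate dehydrogenase, stood at 1.89 and 2.11 against 0.52 and 0.15 (1.67 ± 0.35, adjusted p = 0.00631). PGK1, phosphoglycerate kinase, was higher by 1.52 ± 0.33, a call lost without TAL-ADH run 2 (adjusted p = 0.0651). The higher count in glycolysis was 3 without TAL-ADH run 1, 1 without TAL-ADH run 2 and 2 without control run 2, and the lower count 0, 1 and 1. After quantile normalization 12 were higher and 1 lower. Of 16 tricarboxylic acid cycle genes 2 were higher and 2 lower, 25% called beside 36.6% of all genes. CIT3, a mitochondrial citrate and methylcitrate synthase, stood at -2.73 and -2.29 against 1.34 and 2.21 (-4.28 ± 0.33, adjusted p = 5.01e-05). CIT3 kept its call in every alternative fit, while the higher count was 1 without TAL-ADH run 1 and 0 without any of the other 70 mM arrays, and the lower count 1 without TAL-ADH run 1, TAL-ADH run 2 or control run 2. Of 38 respiratory chain and ATP synthase genes 3 were lower and 1 higher, 10.5% called beside 36.6% of all genes. Without TAL-ADH run 2 or control run 2 the lower count was 1 and the higher count 0. After quantile normalization 0 were lower and 2 higher, and after median scaling 6 and 0. Of 17 peroxisomal fatty acid oxidation genes 6 were lower and 1 higher, 41.2% called beside 36.6% of all genes. POX1, acyl-CoA oxidase, was lower by -2.49 ± 0.50 and FOX2, the multifunctional enzyme of the next steps, by -1.89 ± 0.25. Without control run 2 the lower count was 3 and the higher count 2, and the higher count was 0 when any other 70 mM array was left out. Of 11 glycerol genes 1 was higher and 1 lower, 18.2% called beside 36.6% of all genes. The lower one, the glycerol channel gene FPS1, stood at 1.32 and 1.22 against 2.31 and 2.21 (-0.99 ± 0.19, adjusted p = 0.00383). FPS1 was not called after quantile normalization, the higher count was 0 whichever 70 mM array was left out and the lower count 2 without either control run.

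Sugar transport and disaccharide genes held both directions. Of 21 hexose transporter and sensor genes 5 were higher and 6 lower, 52.4% called beside 36.6% of all genes. HXT15 and HXT16, near-identical members that transport polyols, stood at -2.69 and -1.80 and at -2.70 and -1.78 in TAL-ADH, and at -4.62 and -5.10 and at -4.63 and -5.13 in the control. Their differences were 2.62 ± 0.33 and 2.64 ± 0.34, and that of HXT17 was 2.43 ± 0.41. The HXT15 and HXT16 probes can share signal, so HXT15 and HXT16 are not separate observations. HXT5, a transporter made in slow growth, stood at -0.64 and 0.38 against 2.47 and 4.14 (-3.44 ± 0.76, adjusted p = 0.008). Its call was lost without TAL-ADH run 1 (adjusted p = 0.0584) and control run 2 (0.0627). The lower count was 3 without TAL-ADH run 1, 2 without TAL-ADH run 2 and 3 without control run 2. In the RefSeq gene table SOR2 lies beside HXT15 and SOR1 beside HXT16. Of 13 maltose, isomaltose and sucrose genes 4 were higher and 3 lower, 53.8% called beside 36.6% of all genes. Besides MAL12 and MAL32, the isomaltases IMA1 (2.13 ± 0.39) and IMA5 (2.13 ± 0.25) were higher. The other IMA genes went the other way. IMA2 was called lower (-1.98 ± 0.59, adjusted p = 0.0285). IMA3 (-2.08 ± 0.74, adjusted p = 0.0549) and IMA4 (-2.08 ± 0.73, adjusted p = 0.0512) were lower without being called. The glucoside transporters MPH2 (-1.16 ± 0.22) and MPH3 (-1.27 ± 0.22), near-identical genes, were lower. MAL11, the maltose transporter gene next to MAL12 in that table, differed by -0.30 ± 0.33 and was not called.

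**Figure D5:**
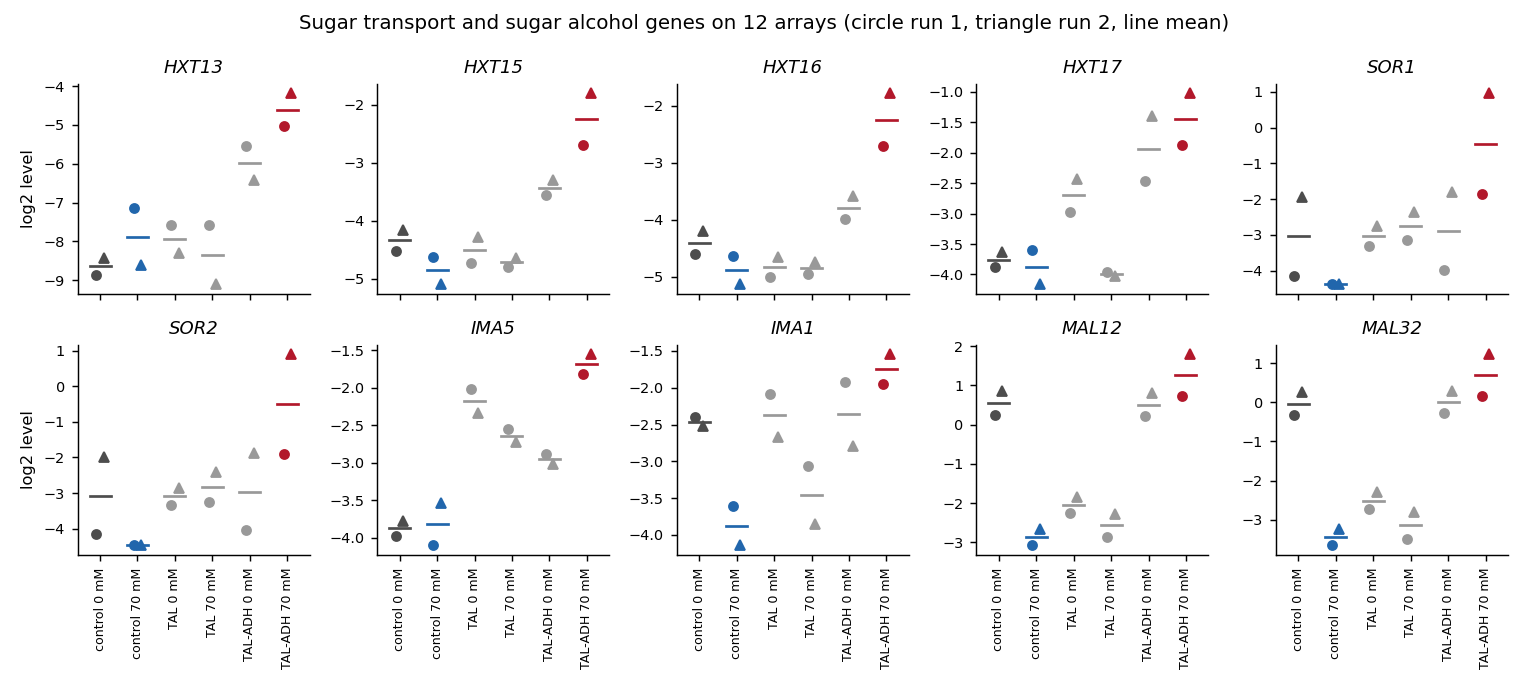
Log2 levels of HXT13, HXT15, HXT16, HXT17, SOR1, SOR2, IMA5, IMA1, MAL12 and MAL32 on all 12 arrays, with symbols and colours as in the plot of marker genes. MAL12 was low on the control 70 mM and both TAL groups, while HXT15 and HXT16 were highest on the TAL-ADH 70 mM arrays, at -2.69 and -1.80 and at -2.70 and -1.78.

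Genes for sulfur amino acids were called lower and those for lysine in both directions. Of 29 sulfate assimilation and methionine genes 19 were lower and 0 higher, with a median of -1.36. MUP3, a methionine permease, stood at -0.58 and -1.46 against 3.56 and 4.07 (-4.84 ± 0.44, adjusted p = 9.89e-05). MUP1, the main methionine permease, was lower by -4.17 ± 0.32, STR3, a cystathionine lyase, by -4.03 ± 0.45 and MET16, which reduces activated sulfate, by -3.98 ± 0.50. The count was 12 without TAL-ADH run 2. Of 9 lysine synthesis genes 3 were higher and 1 lower, 44.4% called beside 36.6% of all genes. LYS9, saccharopine dehydrogenase, stood at 2.87 and 1.42 against -0.86 and -1.37 (3.26 ± 0.58, adjusted p = 0.00294), LYS12 was higher by 2.57 ± 0.31, and LYS20, a homocitrate synthase, was lower by -2.10 ± 0.42. The homocitrate synthase paralogue LYS21 was higher by 1.42 ± 0.20, and without control run 1 the lower count was 2. Of 13 branched-chain genes 1 was higher and 1 lower, 15.4% called beside 36.6% of all genes. ILV5, acetohydroxyacid reductoisomerase, stood at 2.32 and 2.55 against -0.66 and -1.30 (3.41 ± 0.49, adjusted p = 0.00105). The higher count was 4 without control run 1, and the lower count was 0 without either TAL-ADH run. Of 30 arginine, histidine and aromatic amino acid genes 4 were lower and 2 higher, 20% called beside 36.6% of all genes. The aromatic catabolism genes ARO10, a decarboxylase (-1.96 ± 0.35), and ARO9, an aminotransferase (-1.56 ± 0.25), were lower in every alternative fit. The higher count was 0 without TAL-ADH run 1, TAL-ADH run 2 or control run 2 and 4 without control run 1, and the lower count 2 without TAL-ADH run 2 or control run 1.

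Among nucleotide genes, 5 of 11 of pyrimidine synthesis were higher and 3 lower. FUR1, uracil phosphoribosyltransferase, was higher by 1.67 ± 0.21 and URA8, a CTP synthase, lower by -2.47 ± 0.37, beside URA3. The higher count was 1 without TAL-ADH run 1 and 2 without TAL-ADH run 2 or control run 2. Of 20 purine and one-carbon genes 4 were lower and 2 higher, 30% called beside 36.6% of all genes. The lower count was 0 without TAL-ADH run 2 and 2 without control run 2, and the higher count was 0 without TAL-ADH run 1, TAL-ADH run 2 or control run 2 and 1 without control run 1. RNR1, the large subunit of ribonucleotide reductase, stood at 0.04 and 0.93 against -2.39 and -1.89 (2.63 ± 0.46, adjusted p = 0.0027). It was the called gene of its list of 10, which is 10% called beside 36.6% of all genes. Without control run 1 the list had 2.

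Genes of the entry into S phase were mostly higher where called. Of 21 cyclin and S-phase entry genes 10 were higher and 1 lower, with a median of 1.03. PCL1, a G1 cyclin, stood at -1.38 and -0.52 against -3.68 and -4.36 (3.07 ± 0.59, adjusted p = 0.00403). POL30, the sliding clamp of replication, was higher by 2.43 ± 0.38 and CDC6, which loads the replicative helicase, by 2.55 ± 0.25. The lower member was WHI5, a repressor of G1 transcription (-1.45 ± 0.33, adjusted p = 0.00864), whose call was lost without TAL-ADH run 2 (adjusted p = 0.0695) and control run 2 (0.0618). Of 14 origin licensing genes 5 were higher and 1 lower, 42.9% called beside 36.6% of all genes. MCM5, of the replicative helicase, stood at -1.87 and -1.41 against -4.25 and -4.16 (2.57 ± 0.26, adjusted p = 0.000187), and ORC3, of the origin recognition complex, was higher by 1.08 ± 0.18. TAH11, the yeast Cdt1, stood at 0.09 and -0.48 against 2.48 and 2.74 (-2.80 ± 0.26). The higher count was 3 without either TAL-ADH run. Of 9 core histone genes 1 was higher and 1 lower, 22.2% called beside 36.6% of all genes. Neither call survived without TAL-ADH run 2 or either control run.

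Of 19 endoplasmic reticulum folding genes 3 were higher and 2 lower, 26.3% called beside 36.6% of all genes. SIL1, an exchange factor of the lumenal HSP70, stood at -1.10 and -1.11 against -3.28 and -3.72 (2.40 ± 0.22), while KAR2, that HSP70, was lower by -1.50 ± 0.24 and ERO1, the oxidase of disulfide formation, by -3.28 ± 0.41. The higher count was 6 without control run 1. Of 16 phosphate genes 6 were lower and 0 higher, 37.5% called beside 36.6% of all genes. PHO89, a sodium-phosphate cotransporter, led them at -2.07 and -2.81 against 1.44 and 1.92 (-4.12 ± 0.46, adjusted p = 0.000286). Of 18 iron uptake genes 6 were lower and 0 higher, 33.3% called beside 36.6% of all genes, with FRE3, a ferric reductase, lower by -1.98 ± 0.31. The iron count was 3 without TAL-ADH run 1, 1 without TAL-ADH run 2 and 2 without control run 2. Of 26 ergosterol genes 3 were higher and 1 lower, and the higher count was 1 without TAL-ADH run 1, 0 without TAL-ADH run 2 and 1 without control run 2. The ergosterol list had 15.4% called beside 36.6% of all genes, and its lower call was lost without TAL-ADH run 2 or control run 2. Of 20 thiamine and pyridoxine genes 2 were higher and 1 lower, 15% called beside 36.6% of all genes. All 3 calls were lost without TAL-ADH run 2. Of the mating genes, 1 of 5 a-specific genes was higher, and of 4 alpha-specific genes 1 was higher and 2 lower. The shares called were 20% and 75% beside 36.6% of all genes. STE3, the a-factor receptor, stood at -2.95 and -3.05 against -4.48 and -4.50 (1.49 ± 0.32, adjusted p = 0.00671), a call lost after normexp background correction. The a-specific call was lost without TAL-ADH run 1, TAL-ADH run 2 or control run 2, and the lower alpha-specific count was 1 without TAL-ADH run 1 or control run 2. Of 6 measured auxotrophic marker genes 3 were lower and 0 higher, 50% called beside 36.6% of all genes. The lower ones were URA3, ADE2 and MET17 (-3.73 ± 0.48).

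Among 18 pairs of isozymes or paralogues, set with the growth-associated member first, 1 pair was called in opposite directions and 3 in the same direction. TAL1 was higher and NQM1 lower, as given above. ENO1 (1.60 ± 0.43) and ENO2 (1.34 ± 0.38), the enolases, were both higher. Both calls were lost without TAL-ADH run 2 (adjusted p 0.128 and 0.0915) and control run 2 (0.0874 and 0.147), and that of ENO2 also without TAL-ADH run 1 (0.0977). SSE1 (-2.61 ± 0.32) and SSE2 (-1.99 ± 0.34) were both lower, and so were HSC82 (-1.76 ± 0.40) and HSP82 (-3.41 ± 0.80), the HSP90 genes. The HSP90 calls were lost without TAL-ADH run 2 (adjusted p 0.0789 and 0.0804), and that of HSC82 also after quantile normalization. In the other 14 pairs at most 1 member was called. CDC19, the main pyruvate kinase, missed the test at 0.70 ± 0.27 but was called higher after quantile normalization (1.30, adjusted p = 0.00131). Its paralogue PYK2 was lower by -0.94 ± 0.22, a call lost without TAL-ADH run 1 (adjusted p = 0.0692). RNR1 was called, and RNR3, its damage-induced paralogue, differed by -0.34 ± 0.43.

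The strain difference under furfural was then set against the strain difference without furfural in an interaction term. The term was called for 1194 of 6083 genes (19.6%), 683 higher (11.2%) and 511 lower (8.4%), and 2114 genes had an unadjusted p under 0.05. It uses the same 70 mM arrays as the comparison above, so its values are not independent of those above. The groups in this term lay on 3 slides, so slide cannot be told apart from strain and dose in it. TAL1 had a term of 2.08 ± 0.47 (adjusted p = 0.0165), so its strain difference was larger on the arrays labelled 70 mM than on those labelled 0 mM. The term of URA3 was -3.44 ± 0.52 (adjusted p = 0.00299). CIS1 had the lowest term, -8.61 ± 0.47 (adjusted p = 2.36e-05), and RPL8A the highest, 4.75 ± 0.68 (adjusted p = 0.00251). Ribosomal protein genes for the small subunit had a term called positive in 56 of 57 cases, and aldehyde reductases a term called negative in 13 of 20 and positive in 2. For glycolysis the term was called higher for 9 of 19 genes and lower for 0, with a median of 1.78. PGK1 had a term of 3.24 ± 0.47 (adjusted p = 0.00251), with group means of 5.58 in the control and 3.85 in TAL-ADH at 0 mM, and 2.95 and 4.46 at 70 mM. The number of called genes was 513 without TAL-ADH run 2, 562 and 634 when run 1 or run 2 of the control at 0 mM was left out, 727 without TAL-ADH run 1 and 791 without control run 2.

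The arrays labelled TAL-ADH 70 mM could also be set against the control strain without furfural, which lay on the same slide. By limma 2 of 6083 genes (0.0329%) were called, and 163 had an unadjusted p under 0.05. URA3 was lower (0.0164% of genes tested) by -3.58 ± 0.36 (adjusted p = 0.0235) and IMA5, an isomaltase, higher (0.0164%) by 2.19 ± 0.25 (adjusted p = 0.0287). IMA5 stood at -1.81 and -1.56 on the TAL-ADH arrays and at -3.98 and -3.77 in the control at 0 mM. Leaving out any of the 4 arrays of this comparison gave 0 called genes. The list medians lay close to 0 here, at 0.14 and 0.12 for the small and large cytosolic ribosomal subunits, -0.09 for heat shock proteins and 0.02 for aldehyde reductases. Mitochondrial ribosomal proteins had a median of 0.52 and glycolysis genes a median of -0.61, with 0 members of either called. TAL1 was 1.45 ± 0.34 above the control at 0 mM and XKS1 -1.31 ± 0.23 below it, and neither passed (adjusted p = 0.958 and 0.275). HXT15 (2.10 ± 0.33), HXT16 (2.16 ± 0.34) and HXT17 (2.31 ± 0.41) stood higher in TAL-ADH on all arrays without passing (adjusted p = 0.159, 0.159 and 0.275).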

How the data were processed

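RNA of 12 samples was hybridised to single-colour Agilent yeast arrays. Per the file headers, the authors' scanner files were made with Agilent Feature Extraction 10.1.1.1 and hold intensity values per spot, of which the background-corrected processed signal was used. The authors also deposited a table of log2 values, which matched the scanner values after centring of each probe (largest gap 0.00908) and served as an alternative. The genome build is not given in the sources used here. Gene names are those of the array, and 5756 of 6256 were found in the RefSeq gene table of the S288C strain, used only for names and neighbours.

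Here the log2 signals of the unmarked spots of a probe (7 printed) were averaged. The 75th percentile of these values over the array's gene probes was then subtracted. A probe was detected where over 50% of its spots were well above background, and genes detected on both arrays of at least 1 of 6 groups were tested (6083, with 173 dim genes left out). limma 3.58.1 in R 4.3.3 fitted 6 group means over 12 arrays with 6 residual degrees of freedom and Benjamini-Hochberg adjustment, and all p-values in the text come from it. The number of arrays limits the precision. The fit was tested on simulated data with independent noise and no slide effect, so that test does not cover the slide layout here. Figures were drawn with matplotlib 3.10.9.

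The members, gene lists and tests were chosen with earlier results of these data known. Named genes were the 10 largest called differences each way among genes detected in both strains, up to 5 bounds each way, the introduced and marker genes, up to 4 called members a list and direction, up to 5 genes each way in the other comparisons, and the pairs of isozymes. Another 19 genes, among them the HXT15 to HXT17 and IMA5 group, MAL11, NQM1 and YKL070W, were added after their values were seen, and some of these also met the rule. Alternatives were quantile normalization, normexp background correction with an offset of 50, scaling to the array median, other filters and the deposited table. Further ones were fits on the groups compared alone, a replicate block and leaving out each array of the groups compared in turn.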

Additional observations from a re-analysis of the deposited data

Results flagged for a closer look

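The strain difference at 70 mM was set against that at 0 mM, and 1194 genes differed between the doses by the interaction term of limma. Among the named genes, the terms on the log2 scale were -8.61 for CIS1, -7.66 for FRM2, -7.24 for SIP18, -6.97 for SPS100, -6.93 for YKL070W and -3.44 for URA3. The positive terms were 2.08 for TAL1, 4.33 for RPS26B, 4.36 for RPS0B, 4.39 for ILV5, 4.63 for LYS9 and 4.75 for RPL8A. All rest on the arrays labelled TAL-ADH 70 mM, whose profiles stood apart from those of the other arrays labelled 70 mM, and on 2 arrays a group. In this contrast the groups lay on 3 slides, and slide cannot be told apart from strain and dose in these terms.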

How the results depend on the processing

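For the strain difference at 70 mM, 2226 genes were called, against 1866 after quantile normalization, 1824 after normexp, 2040 after median scaling and 1591 with the 4 arrays alone. Leaving out an array gave 1136 to 2183. For the difference between doses, leaving out an array gave 513 to 1350 called genes beside 1194. Against the control at 0 mM, 2 genes were called, 1 after quantile normalization, 1 without the TAL group at 0 mM (an alternative chosen after seeing the data), 0 with the arrays of the groups compared alone, and 0 to 0 when an array was left out. With the run number as a replicate block, the counts were 3130, 2210 and 2 in these comparisons, TRP1 (adjusted p = 0.0021) and CDC19 (0.0228) were called between the strains at 70 mM, and 11 glycolysis genes were higher. Run-1 deviations of the control and TAL-ADH at 70 mM correlated at r = 0.378, with 0.0435 to 0.861 over 15 pairs of groups, but nothing in the labels pairs the runs. Of the 139 tested genes whose stability was followed, 132 were called, 109 of them under every alternative. Most of these genes were named for large called differences, so this share does not stand for all calls. Of all 2226 called genes, 1658 were also called after quantile normalization and 1532 with the 4 arrays alone. MAL11, not called, ranged from -0.75 to 0.14 and RNR3, not called, from -0.88 to 0.20 with an array left out, turning sign without control run 2. The dose term of XKS1 ranged from -0.49 to 0.0019, turning sign without control 0 mM run 1. The cause was not tested. The list medians of the oxidative pentose phosphate, alcohol dehydrogenase, trehalose and glycogen, tricarboxylic acid cycle, respiratory chain, maltose, arginine, histidine and aromatic amino acid, ribonucleotide reductase, endoplasmic reticulum, thiamine, a-specific and alpha-specific genes turned sign in at least 1 alternative. Promoter motifs were not run, since no promoter sequences were used here.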

Other observations

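The sugar genes HXT15 and HXT16 stood high on the arrays labelled TAL-ADH 70 mM beside every other group, while MAL12 did so beside only some. These genes were chosen after their values were seen. HXT16 stood at -2.70 and -1.78 there, at a mean of -3.79 ± 0.29 (SD, n = 2) in TAL-ADH at 0 mM and between -5.13 and -4.21 on the 8 arrays of the other strains. HXT15 stood at -3.55 and -3.30 in TAL-ADH at 0 mM, between its 70 mM arrays and those of the other strains. MAL12 stood at 0.26 and 0.86 in the control at 0 mM and at 0.21 and 0.80 in TAL-ADH at 0 mM, near the 0.73 and 1.79 of TAL-ADH at 70 mM, while the 4 arrays of the TAL strain lay between -2.86 and -1.85.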
